A study of Caenorhabditis elegans with 24 samples.

Results

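The 10 genes described here encode the core of the pathway of mTORC1, the first of the 2 complexes built around the kinase TOR (target of rapamycin), in *C. elegans*, with the scaffold of its sister complex mTORC2, and were taken by symbol from a table of 21982 genes. All 10 were found once and all 10 passed the filter on low values, out of 13150 genes that did. In animals mTORC1 is a kinase complex that promotes growth when amino acids are abundant. Rag GTPases sense this state at the lysosome and recruit the complex, the GATOR1 complex switches the Rag GTPases off, and the GTPase Rheb then activates the kinase, which phosphorylates S6 kinase to raise protein synthesis. In worms, lower mTORC1 activity is known for extending lifespan and for slowing growth and reproduction.

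RNA was measured in whole animals on day 3 of adulthood, in 6 groups of 4 libraries. RAGA-1::AID Somatic animals carried *raga-1(wbm40)*, the endogenous gene fused to an auxin-inducible degron (AID) and EmGFP, and ieSi57, in which the *eft-3* promoter drives the plant F-box protein TIR1 in somatic tissues but not in the germline. RAGA-1::AID Neuronal animals carried the same *raga-1* allele and wbmIs83, in which the *rab-3* promoter drives TIR1 in neurons. Wild type animals were N2 Bristol, with neither the degron nor TIR1. Each strain spent the time from day 1 of adulthood on 0.15 mM auxin, or on ethanol, in which auxin is dissolved (no auxin). With auxin, TIR1 marks the tagged protein for the proteasome. By the study's imaging of day 1 adults, somatic TIR1 also caused mild loss of the tagged protein without auxin. The RAGA-1::AID Somatic animals without auxin may therefore have been partly depleted. Each library came from about 400 worms, and each replicate was grown from its own thaw and harvested on its own day, by the study's methods.

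Values are normalized counts, that is, reads per gene divided by 1 size factor per library. Depth was 20732793 to 27611620 reads in RAGA-1::AID Somatic animals with auxin and 16982857 to 28024224 without, 24569154 to 31923750 in RAGA-1::AID Neuronal animals with auxin and 24038984 to 41671106 without, and 30892897 to 32582050 in wild type animals with auxin and 19748088 to 33283805 without. Differences were tested with limma on log2 of the normalized count plus 1, over all genes and all 24 libraries, and a gene was called where its p, adjusted by the method of Benjamini and Hochberg, was at most 0.01. RNA of whole animals mixes all tissues, the germline and the embryos held inside the mother, so fewer cells of a type and less RNA per cell cannot be told apart. Markers of neurons, body wall muscle, intestine, epidermis, germline and early embryos were detected, and no marker was at 0 in every library, although the epidermal *rol-6* and *bli-2* averaged at most 2.54 and 2.73 normalized counts in any group.

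The Rag GTPases are encoded by *raga-1* (WBGene00006414, chromosome II from 11301359 to 11302776, WBcel235, plus strand), whose coding sequence gives 312 residues, and by *ragc-1* (WBGene00012497, chromosome IV from 11603613 to 11604933, minus strand), its heterodimer partner. The kinase TOR is encoded by *let-363* (WBGene00002583, chromosome I from 5245743 to 5263424, plus strand), which at 2695 residues is the longest protein of the group. Its scaffold in mTORC1, Raptor, is encoded by *daf-15* (WBGene00000911, chromosome IV from 9386208 to 9394979, plus strand). The scaffold of mTORC2, Rictor, is encoded by *rict-1* (WBGene00009245, chromosome II from 13098239 to 13116810, minus strand). The activator Rheb is encoded by *rheb-1* (WBGene00010038, chromosome III from 9454163 to 9456030, minus strand). S6 kinase is encoded by *rsks-1* (WBGene00012929, chromosome III from 11245120 to 11252281, plus strand). GATOR1 subunits are encoded by *nprl-2* (WBGene00018635, chromosome IV from 7556816 to 7558761, plus strand) and *nprl-3* (WBGene00018072, chromosome IV from 8297492 to 8299843, plus strand). Folliculin, which in mammals acts on the RagC side of the heterodimer, is encoded by *flcn-1* (WBGene00017699, chromosome II from 6928763 to 6947900, plus strand). The largest overlap with a neighbour was that of *nprl-2*, where F49E8.8 on the same strand covers 25.9% of the exonic bases, so the split of reads between these 2 genes is uncertain. For the other members, exons of neighbours covered at most 1.82% of the exonic bases.

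Per kilobase of annotated exon, the levels of the 10 genes were compared. In wild type animals without auxin, the order by level was *ragc-1* at 3755 ± 408 normalized counts per kilobase (SD, n = 4), *rsks-1* at 2758 ± 67.0, *raga-1* at 2241 ± 137, *daf-15* at 1517 ± 32.9, *rict-1* at 1446 ± 37.8, *nprl-3* at 1273 ± 18.1, *rheb-1* at 1193 ± 76.0, *let-363* at 1159 ± 64.6, *nprl-2* at 1072 ± 28.9 and *flcn-1* at 1026 ± 65.9. The first 3 were each separated from the next by all 4 libraries. The libraries of *daf-15* and *rict-1* overlapped, as did neighbours along the run from *nprl-3* to *flcn-1*, so these orders did not hold beyond the spread. The same 2 genes, *ragc-1* and *rsks-1*, led in all 6 groups, whereas *raga-1* held rank 3 only in the wild type groups and had a mean below those of *daf-15* and *rict-1* in the 4 groups with the degron. There its libraries lay below those of *daf-15* in all 4 groups, but overlapped those of *rict-1* in all but RAGA-1::AID Neuronal animals with auxin, so the order of *raga-1* and *rict-1* did not hold beyond the spread in those 3.

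Replicates agreed closely for most members. The standard deviation within groups on the log2 scale was 0.03 for *nprl-2* and for *daf-15*, which is smaller than for all but 2.53% and 3.18% of the genes tested, and between 0.04 and 0.07 for *rsks-1*, *rict-1*, *nprl-3*, *flcn-1*, *raga-1*, *let-363* and *rheb-1*. It was 0.13 for *ragc-1*, against a median of 0.15 over all genes tested.

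Without auxin, *raga-1* was the member that separated the degron strains from wild type. It had 1646, 1741, 1707 and 1655 normalized counts in RAGA-1::AID Somatic animals and 1675, 1747, 1614 and 1664 in RAGA-1::AID Neuronal animals, against 2708, 3025, 2945 and 2673 in wild type animals. No degron library reached the lowest wild type library. The log2 fold change was -0.75 (standard error 0.04, 95% interval -0.84 to -0.66) in RAGA-1::AID Somatic animals, with an adjusted p of 1.5e-10 by limma, and -0.76 (95% interval -0.85 to -0.67) in RAGA-1::AID Neuronal animals, with an adjusted p of 2.3e-10. Against a background of 0.213% of genes called for the RAGA-1::AID Somatic strain and 0.0076% for the RAGA-1::AID Neuronal strain, 1 of 10 members was called in each comparison, and in RAGA-1::AID Neuronal animals *raga-1* was the 1 gene called of all those tested. The 2 comparisons share the wild type libraries. The allele places the degron and EmGFP at the 3′ end of the coding sequence, 322 bases before the annotated end of the gene. The tag is not part of the WBcel235 transcripts, and whether reads inside it or across its ends were lost, which would lower the count with no change in transcript, was not tested.

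**Figure D1:**
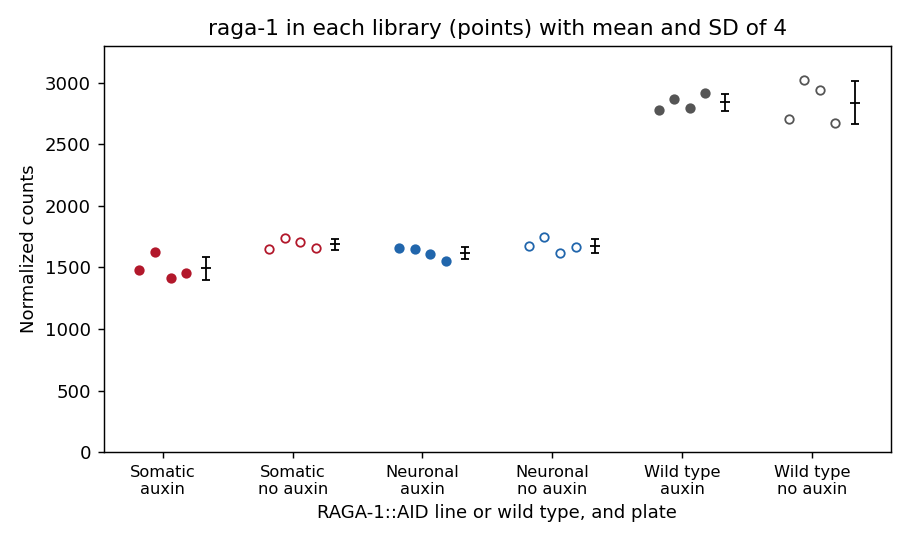
Normalized counts of *raga-1* (y axis, linear, from 0) in each library by strain and plate (x axis); filled points are auxin and open points no auxin, and the bars give the mean and SD of 4 libraries. All 16 degron libraries lie between 1412 and 1747, below all 8 wild type libraries at 2673 to 3025.

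The other 9 members were not called between either degron strain and wild type without auxin. Of these, *nprl-2* was the nearest to a call in RAGA-1::AID Somatic animals, at 2099, 2088, 2100 and 2004 normalized counts against 1990, 1868, 1959 and 1958 in wild type animals. These libraries did not overlap, with a log2 fold change of 0.09 (95% interval 0.04 to 0.15) and an adjusted p of 0.16 by limma. *rict-1* had 6801, 6960, 6953 and 6696 normalized counts in RAGA-1::AID Somatic animals against 7078, 7454, 7392 and 7120 in wild type animals, also with no overlap, for a log2 fold change of -0.08 (95% interval -0.15 to -0.02) and an adjusted p of 0.39. How many of all genes tested were separated in this way was not counted for this comparison. In RAGA-1::AID Neuronal animals the log2 fold changes of the other 9 lay between -0.07 for *rict-1* and 0.11 for *ragc-1*.

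The first question of the auxin comparisons is whether depletion of RAGA-1 protein in all somatic tissues was accompanied by changes in the transcripts of its own pathway. In RAGA-1::AID Somatic animals, 6 of the 10 members were called with auxin against no auxin, all lower, and the changes were small: the least, *nprl-2*, fell by 7.26% and the most, *nprl-3*, fell by 12.9%. Of all genes tested, 35.6% were called in this comparison and 19.6% were called lower. The same 6 genes were those in which all 4 auxin libraries lay below all 4 no auxin libraries, a pattern shown by 20.5% of all genes tested. The median log2 fold change of the 10 members was -0.13, beside 0.01 over all genes tested. All 10 fold changes were below 0 on the authors' scale and after rescaling by the trimmed mean of M values (TMM), but *ragc-1* and *rsks-1* were at 0.004 and 0.002 after quantile normalization. That normalization also ended the calls of *nprl-2* (adjusted p = 0.14 by limma) and *rict-1* (adjusted p = 0.026), and a fit of these 8 libraries by themselves ended those of *raga-1* (adjusted p = 0.017) and *nprl-2* (adjusted p = 0.026).

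**Figure D2:**
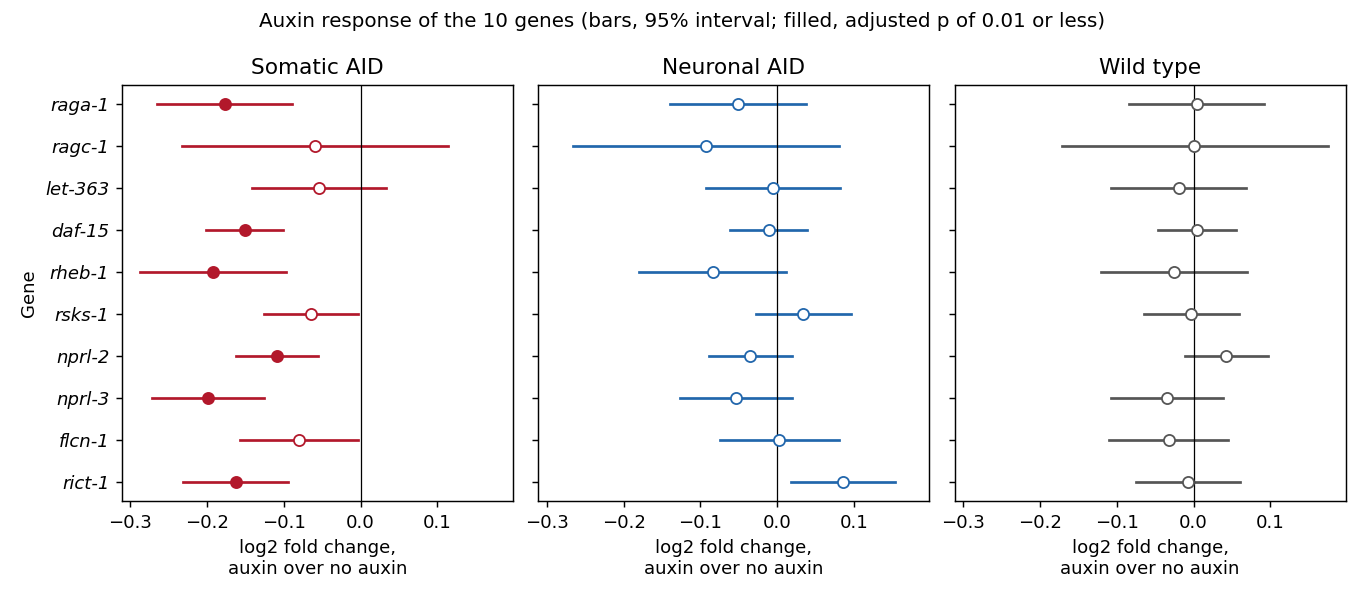
Log2 fold change of each member (x axis), auxin over no auxin, in a panel for each of the 3 strains; lines are 95% intervals of limma, and filled points have an adjusted p of 0.01 or less. All 6 filled points are in the RAGA-1::AID Somatic panel, from -0.20 for *nprl-3* to -0.11 for *nprl-2*.

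Of the Rag GTPases, *raga-1* fell further with auxin. It had 1478, 1628, 1412 and 1457 normalized counts in RAGA-1::AID Somatic animals with auxin, against 1646, 1741, 1707 and 1655 without auxin. The log2 fold change was -0.18 (standard error 0.04, 95% interval -0.27 to -0.09, adjusted p = 0.0017 by limma), a step smaller than the distance of both groups from wild type. Its partner *ragc-1* had 3891, 3393, 3358 and 4035 normalized counts with auxin, against 3661, 4287, 3600 and 3733 without. These libraries overlapped, and the log2 fold change of -0.06 had a 95% interval from -0.23 to 0.11.

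Of the kinase and the 2 scaffolds, both scaffolds fell and the kinase was not called. *let-363* had 9751, 10423, 9773 and 9551 normalized counts with auxin, against 10919, 9829, 10008 and 10257 without, overlapping groups with a log2 fold change of -0.05 (95% interval -0.14 to 0.03). *daf-15* had 8142, 8372, 8206 and 8029 normalized counts with auxin, against 9508, 8794, 9057 and 9023 without, and this was the smallest adjusted p of the members, 2.9e-05 by limma for a log2 fold change of -0.15 (standard error 0.02). *rict-1* had 6055, 6495, 6093 and 5849 normalized counts with auxin, against 6801, 6960, 6953 and 6696 without, a log2 fold change of -0.16 (standard error 0.03, adjusted p = 0.00034 by limma). Transcripts of Raptor, which is specific to mTORC1, and of Rictor, which is specific to mTORC2, thus both decreased, and *daf-15* fell by 9.95% where *rict-1* fell by 10.7%. The ratio of *daf-15* to *rict-1* per kilobase was 1.14 ± 0.0301 with auxin and 1.13 ± 0.0495 without (SD, n = 4). The ratio of *daf-15* to *let-363* per kilobase was 1.17 to 1.22 with auxin, against 1.27 to 1.32 without.

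The activator Rheb and both subunits of the inhibitor GATOR1 were called lower. *rheb-1* had 1222, 1204, 1253 and 1209 normalized counts with auxin, against 1405, 1334, 1346 and 1508 without, a log2 fold change of -0.19 (standard error 0.05, adjusted p = 0.0017 by limma). The GATOR1 subunit *nprl-3* had 1696, 1755, 1869 and 1647 normalized counts with auxin, against 2051, 1964, 1929 and 2048 without, the largest change of the members at -0.20 (standard error 0.04, adjusted p = 9.1e-05). The other GATOR1 subunit, *nprl-2*, had 1920, 1959, 1857 and 1954 normalized counts with auxin, against 2099, 2088, 2100 and 2004 without, a log2 fold change of -0.11 (standard error 0.03, adjusted p = 0.0017). No library of one group entered the range of the other in these 3 genes. *flcn-1* had 2947, 3115, 2884 and 3070 normalized counts with auxin, against 3099, 3178, 3197 and 3225 without, and was not called (log2 fold change -0.08, adjusted p = 0.08).

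The substrate, *rsks-1*, had 7967, 8599, 8283 and 7843 normalized counts in RAGA-1::AID Somatic animals with auxin, against 8924, 8532, 8540 and 8182 without. These groups overlapped, and the log2 fold change of -0.06 (95% interval -0.13 to -0.003) had an adjusted p of 0.079 by limma. Transcript counts say nothing of the phosphorylation of S6 kinase.

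**Figure D3:**
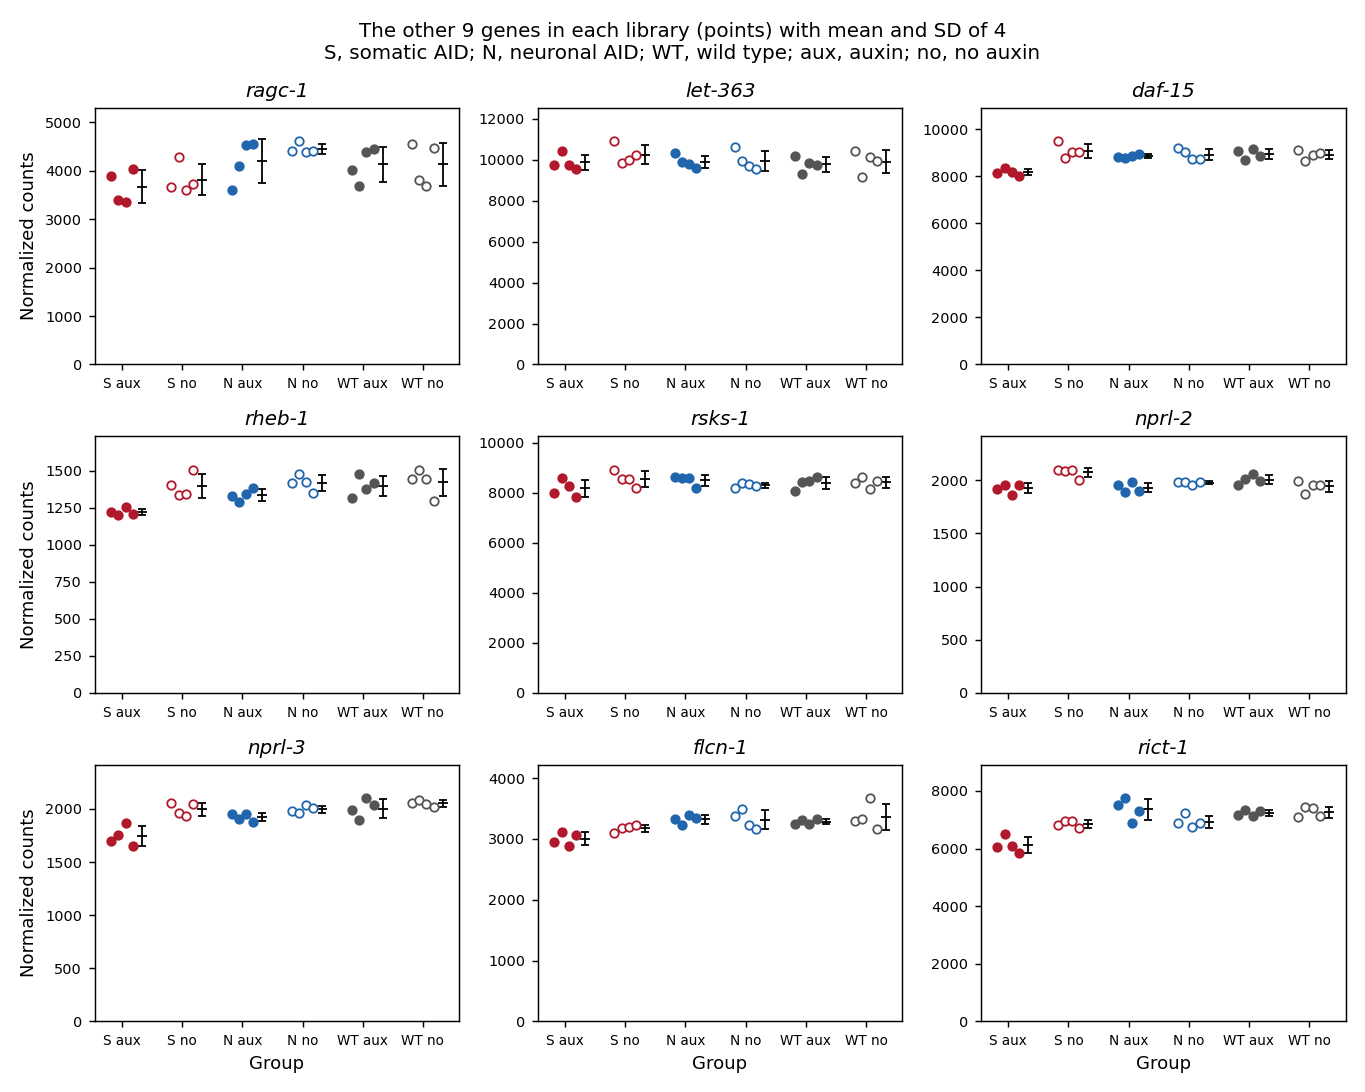
Normalized counts (y axes, linear, from 0) of the 9 members other than *raga-1* in each library by group (x axes); filled points are auxin and open points no auxin, with the mean and SD of 4 libraries as bars. The offset of the RAGA-1::AID Somatic auxin libraries is small beside the level of each gene, for example 8029 to 8372 against 8794 to 9508 without auxin for *daf-15*, and the *ragc-1* libraries spread most.

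Tissue markers were read in the same comparison, where 16% of all genes tested were called higher and 19.6% lower. Of 10 germline markers, 8 were called lower and none higher, with a median log2 fold change of -0.16 and a summed level of 229150 to 245006 normalized counts with auxin, against 259093 to 269878 without. Of 6 intestine markers, 3 were called higher and none lower, with sums of 1350137 to 1444958 against 651460 to 756781. The yolk gene *vit-2* made up 99.6% to 99.7% of that sum with auxin and 99.5% to 99.6% without, at a log2 fold change of 1.00, and the other 5 intestine markers lay between 0.23 for *ges-1*, which was not called, and 0.90 for *pept-1*. Of 8 neuron markers, 4 were called higher and 1 lower, with sums of 7305 to 7453 against 6183 to 6430. Of 6 body wall muscle markers, 4 were higher and 2 lower, with sums of 22329 to 24582 against 18718 to 20270. Of 4 epidermis markers tested, 1 was higher, with sums of 2627 to 2951 against 1085 to 2397 over all 6. Of 4 early embryo markers tested, 1 was higher, with sums of 225 to 287 against 129 to 219 over all 6, and *hlh-27*, below the filter, had 0.0 to 22.9 normalized counts with auxin and was at 0 in all 4 libraries without. The part of these shifts in the lower counts of the mTORC1 genes was not tested.

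The replicates numbered 1 and 4 and those numbered 2 and 3 were also fitted apart, a split known from earlier results of these data. RNA was extracted from 2 replicates at a time, but the sources do not say which, so this split is not known to be that of the extractions. Within replicates 1 and 4, 5 members were called, with *nprl-2* at -0.08 (adjusted p = 0.11 by limma). Within replicates 2 and 3, 0 were called, and the 6 log2 fold changes lay between -0.10 for *nprl-3* and -0.19 for *raga-1*, with adjusted p-values of 0.047 to 0.19. Since the auxin and no auxin libraries of these 6 genes do not overlap, the sign within each pair of replicates was fixed beforehand. How many of all genes tested were called within each pair was not counted, so the counts of 5 and 0 have no background. Of the genes with overlapping libraries, *ragc-1* was 0.10 in the first pair and -0.22 in the second and *let-363* was -0.13 in the first and 0.03 in the second.

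In RAGA-1::AID Neuronal animals none of the 10 members was called with auxin against no auxin, where 0.441% of all genes tested were. limma, edgeR and DESeq2 each called 0, and 1 member, *rict-1*, had an unadjusted p under 0.05. Of all 13150 genes tested, 1903 had such a p by limma. *rict-1* had 7504, 7752, 6895 and 7315 normalized counts with auxin, against 6902, 7228, 6742 and 6870 without, a log2 fold change of 0.09 (95% interval 0.02 to 0.15, adjusted p = 0.21 by limma) with overlapping groups. *raga-1* had 1655, 1652, 1611 and 1552 normalized counts with auxin, against 1675, 1747, 1614 and 1664 without, which also overlapped (log2 fold change -0.05, 95% interval -0.14 to 0.04). *nprl-3* was at 1953, 1904, 1956 and 1877 with auxin, against 1976, 1961, 2038 and 2006 without, with no overlap but an adjusted p of 0.52. The share of all genes tested with such a separation was not counted here. The intervals of the other 7 members reached no further than -0.27 to 0.10, and those of *daf-15*, from -0.06 to 0.04, and *nprl-2*, from -0.09 to 0.02, were the narrowest. These libraries are of whole animals, so the values hold for all tissues together and not for neurons alone.

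In wild type animals, which have neither the degron nor TIR1, auxin called none of the 10 members and 0% of all genes tested. limma, edgeR and DESeq2 each called 0 members, and 0 had an unadjusted p under 0.05. Of all 13150 genes tested, 303 had such a p by limma. The log2 fold changes of the members lay between -0.04 for *nprl-3* and 0.04 for *nprl-2*, with a median of -0.01. For *daf-15* the 4 libraries with auxin had 9073, 8696, 9158 and 8884 normalized counts, against 9131, 8672, 8904 and 8998 without, and the 95% interval of the change was -0.05 to 0.06.

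Whether the response of a member differed between strains was tested directly, as the difference of the log2 fold changes. For RAGA-1::AID Somatic minus wild type, 2 of 10 members were called, where 16.8% of all genes tested were. These were *daf-15*, whose response was lower by a log2 difference of -0.16 (standard error 0.03, adjusted p = 0.0018 by limma), and *nprl-2*, at -0.15 (standard error 0.04, adjusted p = 0.0039). Without wild type auxin replicate 3 the adjusted p of *nprl-2* was 0.011 and the count 1, while its difference lay between -0.17 and -0.13 in all fits that left out a library. The differences of *raga-1* (-0.18, adjusted p = 0.027), *rict-1* (-0.16, adjusted p = 0.015), *nprl-3* (-0.16, adjusted p = 0.017) and *rheb-1* (-0.17, adjusted p = 0.058) were of the same size but not called in this fit, which has no replicate term. With a block for the replicate number in limma, 4 members were called. Without RAGA-1::AID Somatic auxin replicate 2, the library in which *raga-1* and *rict-1* were highest of their group, both were called as well, for a count of 4. *rict-1* was also called without RAGA-1::AID Neuronal auxin replicate 3, and *nprl-3* without RAGA-1::AID Somatic auxin replicate 3 or wild type auxin replicate 2.

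For the Somatic minus the Neuronal strain, 2 of 10 members were called, where 11.2% of all genes tested were. *rict-1* had the largest difference of responses, -0.25 (standard error 0.05, 95% interval -0.35 to -0.15, adjusted p = 0.00074 by limma), being lower with auxin in the 4 RAGA-1::AID Somatic libraries and at 0.09 in RAGA-1::AID Neuronal animals. *daf-15* differed by -0.14 (standard error 0.03, adjusted p = 0.0058), which was lost in 7 of the 24 fits that left out a library, those of Somatic auxin replicates 1 and 4, Somatic no auxin replicate 1, Neuronal replicates 3 and 4 with auxin and Neuronal replicates 3 and 4 without it, with an adjusted p of at most 0.015. Without RAGA-1::AID Somatic auxin replicate 3, *nprl-3* was called too and the count was 3. For *raga-1* the difference was -0.13 (95% interval -0.25 to -0.002, adjusted p = 0.14). For RAGA-1::AID Neuronal minus wild type, none of the 10 members was called by limma, edgeR or DESeq2, where 0.0152% of all genes tested were, and 1 member, *nprl-2*, had an unadjusted p under 0.05. Such a p was found by limma for 870 of all 13150 genes tested. The 3 sets of differences share libraries with each other and with the comparisons within strains.

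A wider list of 45 genes around mTORC1, all of them tested, was read in the same way. It was chosen with earlier results of these data known, and the study had already reported *pha-4* and *sfa-1* as raised. Its shares, set beside those of all genes tested, are therefore a description and no test of the pathway. In RAGA-1::AID Somatic animals 6 were called higher and 14 lower with auxin, 44.4% of the list against 35.6% of all genes tested, with a median log2 fold change of -0.08. After quantile normalization 8 were higher and 14 lower, with *lmtr-2*, *npp-20*, *ife-4* and *eef-2* added and *hgap-2* and *aakg-5* lost. Of all 13150 genes tested, 3725 were called after that normalization, 34.4% of them higher, against 4680 on the authors' scale. A fit of these 8 libraries by themselves lost 5 of the list, among them *npp-18*. How many of all genes that fit called was not counted. Without a replicate term, limma called none in RAGA-1::AID Neuronal or wild type animals with auxin, or between the degron strains and wild type without auxin. At an unadjusted p under 0.05 these 4 comparisons gave 9, 1, 3 and 1 genes in the order RAGA-1::AID Neuronal auxin, wild type auxin, RAGA-1::AID Somatic against wild type and RAGA-1::AID Neuronal against wild type. In the same order, 1903, 303, 1285 and 654 of all 13150 genes tested had such a p by limma. edgeR without a replicate term called none in any of these comparisons, and DESeq2 called 1, *akt-2*, in RAGA-1::AID Neuronal animals. With a block for the replicate number, limma and edgeR also called *akt-2* there.

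Upstream of the Rag GTPases, 4 of 9 genes that carry nutrient signals were called lower and none higher. This was 44.4%, where 19.6% of all genes tested were called lower in RAGA-1::AID Somatic animals with auxin. *gck-2*, the ortholog of the kinase MAP4K3, had 3368, 3523, 3470 and 3267 normalized counts in RAGA-1::AID Somatic animals with auxin, against 4105, 4272, 4201 and 4074 without, a log2 fold change of -0.29 (adjusted p = 1.9e-08 by limma). *lmtr-3*, a subunit of the Ragulator complex that holds the Rag GTPases at the lysosome, was at -0.23 (adjusted p = 2.6e-05), and *npp-18*, whose ortholog SEH1 serves both GATOR2 and the nuclear pore, was at -0.16 (adjusted p = 0.00038).

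Of the 5 partners and assembly factors of the 2 TOR complexes, 4 were called lower, against 19.6% of all genes tested. *mlst-8*, the LST8 subunit shared by both complexes, had 1407, 1340, 1374 and 1337 normalized counts with auxin, against 1592, 1712, 1666 and 1683 without, a log2 fold change of -0.29 (adjusted p = 2e-06 by limma). The RuvB-like ATPase *ruvb-1* was at -0.17 (adjusted p = 4.8e-07), and *clk-2*, the ortholog of the TOR maturation factor TELO2, was at -0.28 (adjusted p = 4.6e-06). In each of these 3 genes the highest library with auxin lay below the lowest without.

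The 4 AGC kinases, which act beside or below mTORC2 and in insulin signalling, split. *sgk-1*, which acts downstream of Rictor, rose to 573, 436, 439 and 496 normalized counts with auxin, against 335, 293, 252 and 262 without, a log2 fold change of 0.77 (standard error 0.12, adjusted p = 2.4e-05 by limma). *pdk-1*, which activates AGC kinases, fell to 862, 1019, 913 and 894, against 1118, 1331, 1257 and 1244 without (log2 fold change -0.42, adjusted p = 3e-06). *akt-1* was at -0.14 (adjusted p = 6.5e-06). *akt-2*, named here after its values were seen, was not called in RAGA-1::AID Somatic animals (-0.12, adjusted p = 0.34). In RAGA-1::AID Neuronal animals it had 388, 427, 351 and 473 normalized counts with auxin, against 255, 348, 307 and 287 without, with no overlap, a log2 fold change of 0.45 and an adjusted p of 0.023 by limma. Of the 45 genes of the wider list, 3 lay above and 4 below without overlap in that comparison, none of them called by limma without a replicate term. The share of all genes tested with such a separation was not counted there, so these counts have no background.

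**Figure D4:**
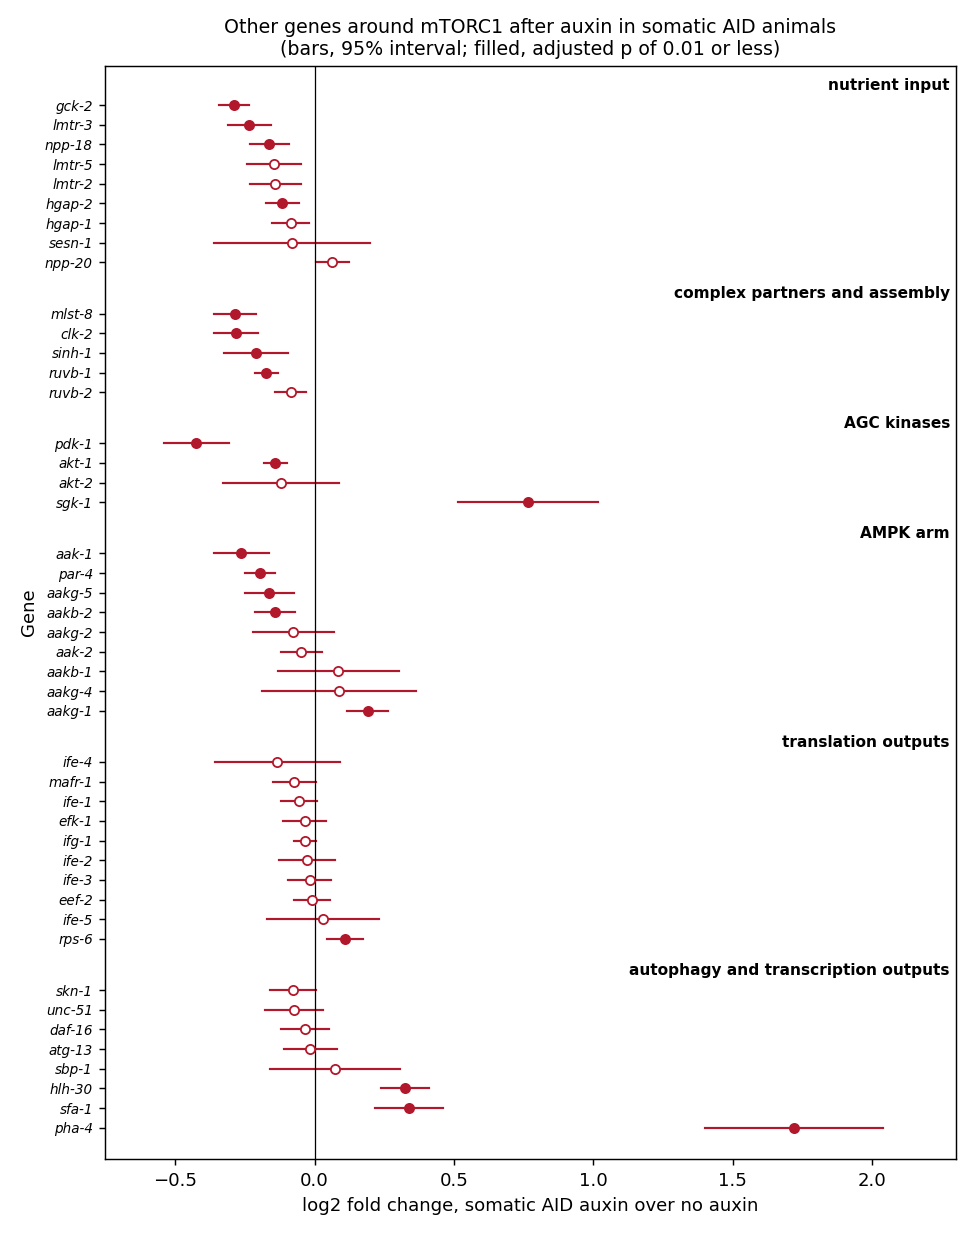
Log2 fold change in RAGA-1::AID Somatic animals, auxin over no auxin (x axis), of the 45 other genes around mTORC1 in 6 groups (y axis); lines are 95% intervals of limma and filled points have an adjusted p of 0.01 or less. Most filled points of the first 4 groups lie left of 0, while *sgk-1* at 0.77 and *pha-4* at 1.72 lie furthest to the right.

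Genes of AMP-activated kinase (AMPK), which opposes mTORC1 when energy is low, had 4 of 9 members called lower and 1 higher. That is 55.6% called, against 35.6% of all genes tested. *par-4*, the ortholog of the AMPK activating kinase LKB1, was at -0.20 (adjusted p = 3.2e-06 by limma) and *aak-1*, a catalytic subunit, at -0.26 (adjusted p = 0.00011). The regulatory subunit *aakg-1* rose by a log2 fold change of 0.19 (adjusted p = 0.00015), to 2384, 2445, 2548 and 2378 normalized counts with auxin, against 2134, 2273, 2144 and 1998 without.

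Of 10 genes of translation that mTORC1 signals to, 1 was called, against 35.6% of all genes tested. This was *rps-6*, the ribosomal protein S6 substrate of S6 kinase. It rose to 20411, 21040, 21759 and 20735 normalized counts with auxin, against 19828, 19313, 18970 and 19695 without, a log2 fold change of 0.11 (adjusted p = 0.0068 by limma). Among genes named after their values were seen, the 5 eIF4E genes lay between -0.13 for *ife-4* and 0.03 for *ife-5*, and none was called.

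Of 8 regulators of autophagy, transcription and splicing linked to TOR, 3 were called, all higher. That is 37.5%, near the 35.6% of all genes tested that were called, of which 16% were called higher and 19.6% lower. *pha-4*, a FOXA transcription factor needed for the pharynx and for TOR-dependent longevity in worms, rose to 274, 299, 251 and 362 normalized counts with auxin, against 89, 76, 100 and 91 without, a log2 fold change of 1.72 (standard error 0.15, adjusted p = 2.1e-08 by limma). *hlh-30*, the TFEB ortholog that drives autophagy genes, was at 0.33 (adjusted p = 1.9e-06), and *sfa-1*, splicing factor 1, at 0.34 (adjusted p = 7e-05). The kinase *unc-51* and its partner *atg-13*, which start autophagy below mTORC1 and were also named after their values were seen, were at -0.07 and -0.02 and not called.

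For the Somatic strain the responses of the wider list differed from those of wild type in 14 of 45 genes (31.1%, against 16.8% of all genes tested), 4 higher and 10 lower, and from those of the Neuronal strain in 12 (26.7%, against 11.2%), 4 higher and 8 lower. *pha-4* differed by 1.64 (adjusted p = 1.6e-05 by limma) and 1.32 (adjusted p = 0.00026) in these 2 tests, *sgk-1* by 0.78 (adjusted p = 0.0017) and 0.84 (adjusted p = 0.0015), and *gck-2* by -0.31 (adjusted p = 3.4e-06) and -0.21 (adjusted p = 0.00035). None of the 45 differed in its response between RAGA-1::AID Neuronal and wild type animals by limma, edgeR or DESeq2, with 5 at an unadjusted p under 0.05. Such a p was found by limma for 870 of all 13150 genes tested.

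The genes whose pattern over the 24 libraries was most like that of *raga-1* were *efl-3*, *sup-37*, *ccd-5*, *casc-3* and *myrf-1*. Their log2 values, centred on their own means, differed from those of *raga-1* by a root mean square of 0.23, 0.25, 0.25, 0.26 and 0.27, where *raga-1* itself departed from its mean by 0.39. Of these, *efl-3* averaged 317 normalized counts in RAGA-1::AID Somatic and 303 in RAGA-1::AID Neuronal animals without auxin, against 384 in wild type animals, and none of the 5 was called in either comparison.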

How the data were processed

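Whole day 3 adults gave 24 libraries, grouped by strain and plate as GEO's labels give them. Poly(A) RNA was made into strand-specific libraries, which the authors quantified per transcript with Salmon 1.4.0 against WBcel235 (Ensembl release 104), passed through tximport and normalized (DESeq2 1.34.0, R 4.1.2). For Salmon, the strand setting is not given in the sources. Per gene, the deposited table holds a signal: the authors scaled the count of each library by 1 size factor. Dividing a library by its lowest nonzero value gave whole numbers within 0.01, taken as reads for the count tests. In 1 library, RAGA-1::AID Somatic auxin replicate 1, 1 read is worth near 1 normalized count (0.99613), and the quotients there deviated from whole numbers by at most 0.000274. Symbols came from Ensembl 115 on the same assembly for 19793 genes. Gene positions, exon lengths and overlaps are from that release.

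The filter kept genes that reached 10 normalized counts in 4 or more libraries. limma 3.58.1 (R 4.3.3, with a trend) was run on log2 of the value plus a pseudocount of 1, with 6 group means. On this scale the changes of low genes are understated. The fit was tested on simulated data. Other settings tried were a pseudocount of 0.5 or 4, a filter of 50 or none, TMM or quantile scaling, a fit of the compared libraries by themselves, a block for the replicate number, recovered reads in edgeR 4.0.16 (quasi-likelihood) or DESeq2 1.42.0, a threshold of 0.05, replicates 1 and 4 or 2 and 3 alone, a term for that split, and each library left out in turn. Members and lists were chosen with earlier results of these data known. Named are all members, the wider genes called in the neuronal, wild type or strain comparisons (none by limma without a replicate term), the 3 called genes of smallest adjusted p in each of 6 groups after somatic AID, and the 5 genes nearest to *raga-1*.

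Same-numbered libraries deviated together with correlations over 0.1 in all 4 pairs for wild type auxin (lowest 0.103) and for RAGA-1::AID Neuronal against wild type animals (lowest 0.102), but not in the other comparisons (lowest -0.008), and the labels do not say what a number marks. Libraries of a group differed by more than sampling noise, with a chi-square of at least 4.67 per gene. Depth limits the counting precision of the members little, since each had over 1000 normalized counts in every library. Figures were drawn with Python 3.11.15 and matplotlib 3.10.9.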

Additional observations from a re-analysis of the deposited data

Results flagged for a closer look

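Library values apart from the rest of their group were looked for in 60 sets of 4 libraries, where chance marks about 1 in 20. In 3 sets 1 library stood apart: *ragc-1* at 4614 normalized counts in RAGA-1::AID Neuronal no auxin replicate 2 (others 4396 to 4413), *rsks-1* at 8175 in RAGA-1::AID Neuronal auxin replicate 4 (others 8577 to 8611), and *nprl-2* at 2004 in RAGA-1::AID Somatic no auxin replicate 4 (others 2088 to 2100).

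A difference between strains in the response to auxin marked *daf-15* (-0.16 on the log2 scale, adjusted p = 0.0018 by limma) and *nprl-2* (-0.15, adjusted p = 0.0039) for RAGA-1::AID Somatic minus wild type animals. It also marked *daf-15* (-0.14, adjusted p = 0.0058) and *rict-1* (-0.25, adjusted p = 0.00074) for RAGA-1::AID Somatic minus RAGA-1::AID Neuronal animals.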

How the results depend on the processing

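Of the members' log2 fold changes, none that was called turned round under any alternative run. For the 6 members called in RAGA-1::AID Somatic animals, and for *raga-1* against wild type, the compared libraries do not overlap. In fits on fewer libraries the sign of these changes was thus fixed beforehand. The 6 members called in RAGA-1::AID Somatic animals were 6 in every fit that left out a library (lowest and highest 6), 4 after quantile normalization and with only the compared libraries, and 0 within replicates 2 and 3. The cause was not tested, beyond the 2 libraries a group that remain. Quantile normalization also moved the share of higher genes among all calls to 34.4%, against 45.0%, and the median of all genes to -0.05, against 0.01. The count for RAGA-1::AID Somatic minus wild type responses was 1 after quantile normalization and with only the compared libraries, 4 with the replicate block in limma, 5 at an adjusted p of 0.05, 0 within replicates 2 and 3, and 1 to 4 without 1 library. The count for RAGA-1::AID Somatic minus RAGA-1::AID Neuronal responses was 1 after TMM rescaling or quantile normalization, with only the compared libraries, by edgeR and within replicates 1 and 4, 0 within replicates 2 and 3, and 1 to 3 without 1 library. Over all genes tested, calls in RAGA-1::AID Somatic animals were 4680 on the authors' scale, 4495 after TMM rescaling and 3725 after quantile normalization. In the same order, RAGA-1::AID Somatic minus wild type responses gave 2206, 2048 and 1634, and RAGA-1::AID Somatic minus RAGA-1::AID Neuronal responses 1477, 1332 and 1080. Calls over all genes under the other settings were not counted, so the counts of members and wider genes there have no background. For the wider list, RAGA-1::AID Somatic calls were 10 within replicates 2 and 3, against 20. RAGA-1::AID Neuronal calls were 1, *akt-2*, with the replicate block in limma or edgeR, by DESeq2, at an adjusted p of 0.05 and with a term for the split of replicates, against 0. The RAGA-1::AID Somatic minus wild type responses gave 6 within replicates 1 and 4 and 2 within replicates 2 and 3, against 14, and the RAGA-1::AID Somatic minus RAGA-1::AID Neuronal responses gave 5 and 0, against 12. In the replicate block fits the members called in RAGA-1::AID Somatic animals stayed at 6. No call changed in the 2 comparisons whose 4 correlations were all over 0.1. Elsewhere the block did change calls, namely *akt-2* in RAGA-1::AID Neuronal animals and the count for RAGA-1::AID Somatic minus wild type responses. In the 3 auxin comparisons, each auxin library correlated best with the no auxin library of its own number. The reverse direction was not checked. This best match is a hint from the data that the numbers pair these libraries too. For RAGA-1::AID Neuronal against wild type animals, RAGA-1::AID Neuronal replicate 4 did not match its own number best. The cause of these shifts was not tested.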
